A study of Homo sapiens with 36 samples.

Results

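The genes described here are 10 genes of the NF-kB pathway, taken as the rows with the symbols RELA, RELB, NFKB1, NFKB2, NFKBIA, NFKBIZ, TNFAIP3, BIRC3, ICAM1 and IER3 among the 60591 rows of the mRNA count table. All 10 were found and all passed the filter on low counts in both cell lines, so that none was left out of a test. RNA came from Caco-2 and HT-29 cells, 2 human lines from colorectal tumours, each with 3 libraries of control cells, 3 of cells given CoCl2 and 3 of cells given an oxyquinoline derivative (OD). Each agent blocks prolyl hydroxylases, the enzymes through which cells destroy hypoxia-inducible factor (HIF) when oxygen is present, and so served as chemical hypoxia. CoCl2 was given at 300 µM and OD at 5 µM, both for 24 h, and the control medium held 0.5 µl of dimethyl sulfoxide per ml, the amount that OD brought with it. The labels give water as the solvent of the CoCl2 stock, whereas the study's methods add dimethyl sulfoxide to that medium too. Those methods describe Caco-2 and not HT-29, which is known here from the depositors' labels and notes alone. The effects of CoCl2 and of a possible difference in solvent therefore cannot be told apart. OD is known here by its supplier's code and its structure is not stated. Caco-2 cells had been kept under differentiating conditions for 21 days and HT-29 cells had not, and the effects of line and of culture state cannot be told apart where the lines are compared. The study's methods call the Caco-2 libraries biological replicates. No source used here says what was kept separate between the libraries of either line, so the p-values measure only the spread between these libraries.

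NF-kB is a family of transcription factors that work as pairs. RELA and the NFKB1 product p50 form the pair of the fast, canonical branch, which is held in the cytoplasm by IkB proteins until a kinase marks these for breakdown, while RELB and the NFKB2 product p52 form the pair of the slower, alternative branch. Several of the genes that NF-kB switches on encode its own brakes, among them the inhibitor IkB-alpha (NFKBIA) and the ubiquitin-editing enzyme A20 (TNFAIP3), and in the gut lining the pathway is known for its part in the answer to bacteria and cytokines.

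The sequence that NF-kB pairs bind, the kappa-B site, is shown here because the feedback genes are known to carry it near their start. In RefSeq promoters (GRCh38.p14, 250 bases before to 50 bases after a start site) a kappa-B-like word (GGG, then any 2 bases, TT, any base and CC, read on both strands) was found in 8 of the 13 promoters listed for these genes and in at least 1 promoter of 6 of the 8 genes with an entry. Over all 35116 promoters of that length 5.68% held the word. The word was chosen after the promoter sequences had been seen, so these shares are a description. The windows of 30 bases below run 5′ to 3′ on the strand of the gene, with the match in capitals, and the number of bases from the start site to its first base is given for each.

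NFKBIA, chr14:35404811-35404840, minus strand, match on the opposite strand 81 bases before the start: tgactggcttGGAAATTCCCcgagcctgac
NFKB1, chr4:102501300-102501329, plus strand, match 49 bases before the start: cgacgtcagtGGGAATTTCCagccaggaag
NFKB2, chr10:102394461-102394490, plus strand, match on both strands 107 bases before the start: gaaacgtcatGGGAATTCCCccctccgggg
NFKB2 at another start, chr10:102395674-102395703, plus strand, match 21 bases before the start: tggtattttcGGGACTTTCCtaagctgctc
TNFAIP3, chr6:137867182-137867211, plus strand, match on the opposite strand 67 bases before the start: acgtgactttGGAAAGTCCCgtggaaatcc
BIRC3, chr11:102317275-102317304, plus strand, match on the opposite strand 199 bases before the start: tttgggtcatGGAAATCCCCgagtgggttt
NFKBIZ, chr3:101827757-101827786, plus strand, match 223 bases before the start: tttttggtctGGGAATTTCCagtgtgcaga

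TNFAIP3 held another match, 55 bases before its start, NFKBIZ another at a further start site, and NFKB2 another 3 before its start sites, 2 of them overlapping. The RELA and ICAM1 windows held none of these letters. The core of the HIF-binding site, ACGTG on either strand, lay in 1 of the 13 promoters, that of TNFAIP3, and in 21.4% of all promoters. A match is a run of letters and not a bound site. NFKB1, NFKBIZ and NFKBIA share a match of the same letters, the last on the opposite strand. The part of these matches in the responses was not tested.

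Depth ran from 12925719 to 22332639 counts over the 18 mRNA libraries, and replicates varied more than counting error would give (chi-square over its degrees of freedom 3.08 to 9.16 by group). All 7 epithelial markers (EPCAM, CDH1, KRT8, KRT18, KRT20, VIL1 and CDX2) were above 1 CPM (counts scaled to 1000000 per library) in every group, though not at steady levels: in HT-29 VIL1 stood at 205 CPM in control, 33.6 with CoCl2 and 92.5 with OD, CDX2 at 12.8, 4.63 and 8.18, and KRT20 at 321, 755 and 842. In Caco-2 KRT18 stood at 445, 1130 and 688 CPM and VIL1 at 796, 443 and 870. The 5 enterocyte markers summed to 2700 to 4370 CPM in Caco-2 and to 7.92 to 13.9 CPM in HT-29. Most of the sum was APOA1 in Caco-2 and SI in HT-29. From control to CoCl2 in Caco-2, APOA1 went from 2550 to 3720 CPM and APOA4 from 13.1 to 61.2. SI went from 289 to 115 CPM, ALPI from 22.8 to 16.5 and FABP2 from 1.18 to 0.444, the last with overlap. Markers of blood cells were low, but their sum moved with OD in HT-29: the 5 genes summed to 3.94 to 5.23 CPM in control, 5.10 to 5.81 with CoCl2 and 21.2 to 22.6 with OD. The higher sum lay in ITGAM, which encodes an integrin chain, at 2.77 CPM in control and 19.7 with OD, while PTPRC, the defining marker, stood at 0 in all HT-29 libraries with OD. The fibroblast markers also summed higher there, 6.78 to 7.93 CPM against 3.23 to 3.68 in control, with COL1A2 and DCN at 0. In Caco-2 they summed to 36.1 to 37.6 CPM in control, 29.9 to 32.2 with CoCl2 and 26.6 to 31.5 with OD. Endothelial markers summed to 8.93 to 12.8, 2.16 to 3.34 and 5.83 to 6.79 CPM in Caco-2 (control, CoCl2, OD). In HT-29 their sums were 2.95 to 4.26, 0.299 to 0.622 and 1.4 to 1.71 CPM. The part of these genes in the results was not tested.

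Each agent was first compared with control in each line, which asks whether the genes of this pathway follow chemical hypoxia. Values are CPM on TMM-scaled library sizes, and a gene was called when edgeR's quasi-likelihood test gave an FDR (Benjamini-Hochberg, over all genes tested) under 0.05 and an absolute log2 fold change over 1, the limits of the study. "Rose" and "fell" are used for called genes only. In Caco-2, CoCl2 raised 6 of the 10 genes and lowered 0, where 9.13% of all 16034 genes tested were called higher and 23.4% were called in either direction. OD raised 2 of the 10 in Caco-2, RELB and NFKB2, against 4.43% of all genes called higher and 11.7% in either direction. In HT-29, CoCl2 raised 7 of the 10, against 17.4% of all 15812 genes called higher and 41.3% in either direction. OD raised 6 of the 10 in HT-29, against 9.50% of all genes called higher, 7.57% lower and 17.1% in either direction. By FDR alone, with no fold limit, 10 and 8 of the 10 genes passed for CoCl2 and OD in Caco-2 (64.7% and 50.4% of all genes) and 9 and 10 in HT-29 (82.8% and 68.8%). The 10 genes had a median log2 fold change of 1.20 (CoCl2) and 0.60 (OD) in Caco-2 and of 1.80 (CoCl2) and 1.79 (OD) in HT-29, while the median over all genes tested lay between -0.03 and 0.01 in these comparisons.

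**Figure D1:**
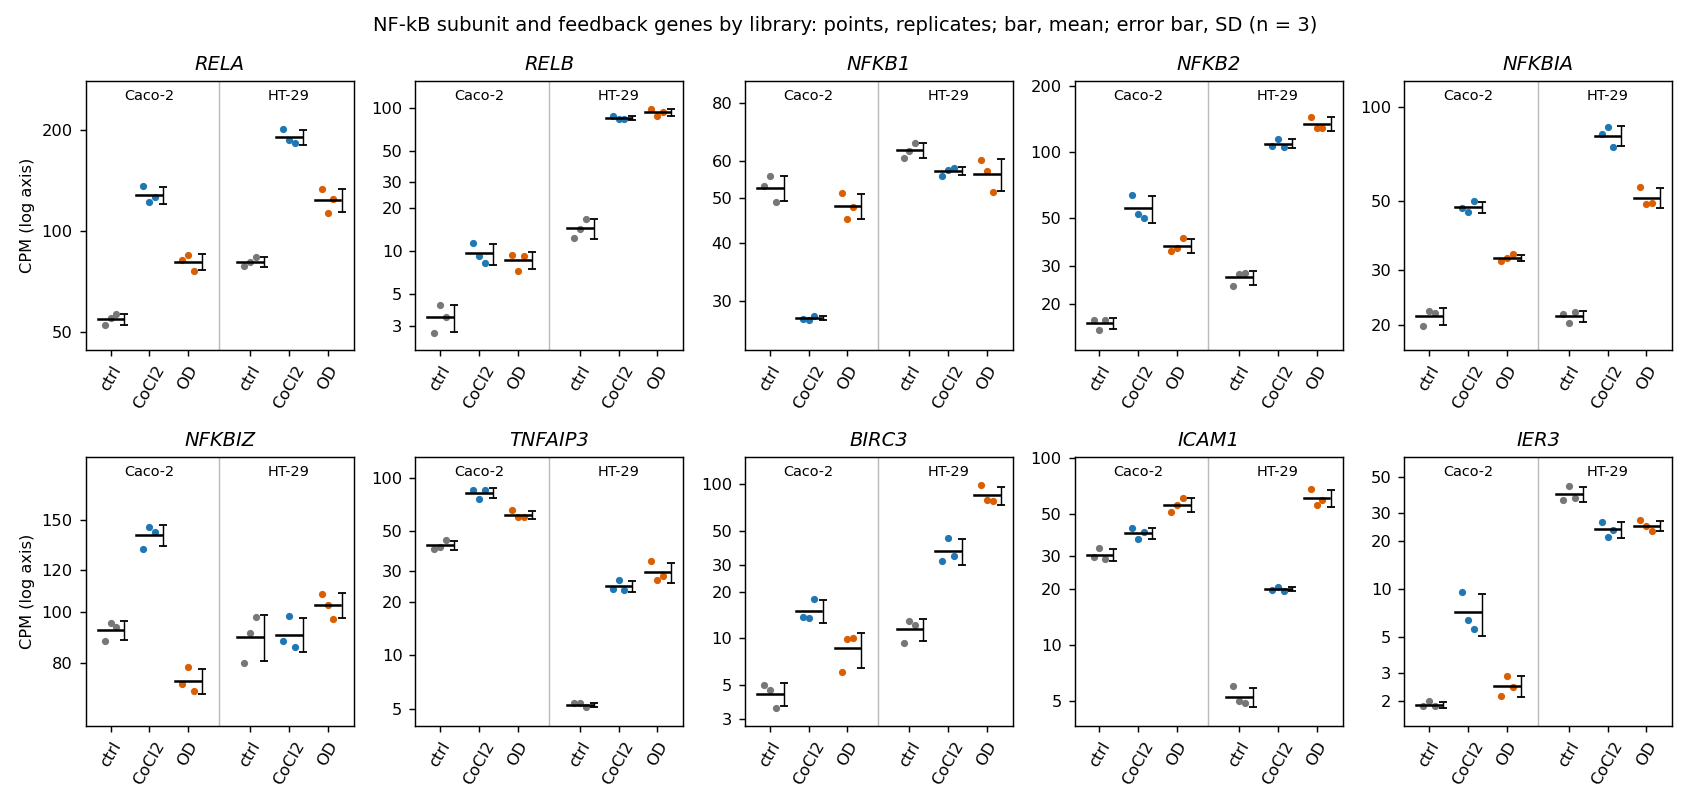
CPM of the 10 genes in each of the 18 mRNA libraries, 1 panel per gene, on log axes, with points for replicates, bars for the mean and error bars for the SD (n = 3). RELA, RELB, NFKB2, NFKBIA, TNFAIP3, BIRC3 and ICAM1 stood above control in every treated library of both lines. NFKB1 stood lowest with CoCl2 in Caco-2 (27.3 to 27.9 CPM), and IER3 started at 1.86 to 2.01 CPM in Caco-2 and 36 to 43.9 in HT-29.

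**Figure D2:**
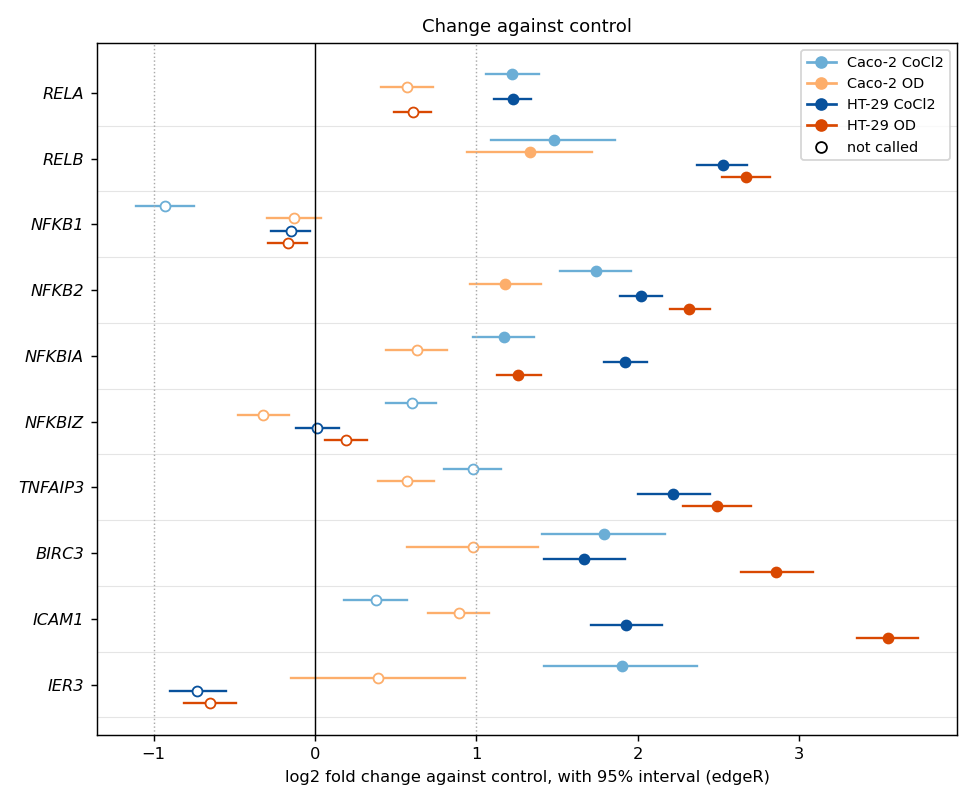
Log2 fold change against control of the 10 genes with its 95% interval, for CoCl2 and OD in each line, with filled points for called genes and dotted lines at the fold limit of 1. The values ran from -0.93 (NFKB1, CoCl2 in Caco-2) to 3.55 (ICAM1, OD in HT-29).

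Of the subunits, those of the alternative branch rose in all 4 comparisons. RELB stood at 2.68, 4.16 and 3.46 CPM in the Caco-2 controls, at 11.3, 9.23 and 8.22 with CoCl2 and at 9.28, 7.27 and 9.24 with OD. In HT-29 its controls held 12.3, 14.2 and 16.7 CPM, the CoCl2 libraries 87.1, 83.0 and 83.5, and the OD libraries 98.3, 87.7 and 93.7. Every treated library lay above every control of its line, and the HT-29 controls already lay above all treated Caco-2 libraries. By edgeR RELB rose by a log2 fold change of 1.48 ± 0.19 (SE, n = 3 against 3, FDR 2.39e-07) with CoCl2 and 1.33 ± 0.19 (FDR 2.66e-06) with OD in Caco-2. The rises in HT-29 were 2.53 ± 0.07 (FDR 2.79e-21) and 2.67 ± 0.07 (FDR 5.11e-21), 5.76-fold and 6.36-fold. Ranked by log2 fold change from the highest, RELB was gene 168 of 15812 for OD in HT-29.

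NFKB2, the gene of the p52 precursor p100, held 16.9, 15.3 and 17.0 CPM in the Caco-2 controls, 63.7, 51.7 and 49.5 with CoCl2 and 35.2, 36.2 and 40.2 with OD. In HT-29 it held 24.4, 27.6 and 27.9 CPM in control, 106, 114 and 105 with CoCl2 and 145, 128 and 129 with OD. The groups did not overlap in either line, but their order was reversed: CoCl2 gave the higher level in Caco-2 and OD in HT-29. NFKB2 rose 3.34-fold (log2 1.74 ± 0.11, FDR 6.88e-13 by edgeR) with CoCl2 and 2.27-fold (log2 1.18 ± 0.11, FDR 2.75e-09) with OD in Caco-2. The rises in HT-29 were 4.06-fold (log2 2.02 ± 0.06, FDR 1.24e-20) and 5.01-fold (log2 2.32 ± 0.06, FDR 3.84e-21). By limma-trend on the authors' table of log2(RPKM + 1), a scale that understates low genes, the Caco-2 values of RELB (0.94 with CoCl2 and 0.83 with OD) and of NFKB2 with OD (0.96) were under the fold limit.

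RELA, the activating subunit of the canonical branch, rose with CoCl2 and did not pass the fold limit with OD. Its Caco-2 controls held 52.5, 55.0 and 56.6 CPM, the CoCl2 libraries 136, 122 and 126, and the OD libraries 82.3, 85.1 and 76.3. The HT-29 controls held 78.7, 80.7 and 84.0 CPM, the CoCl2 libraries 201, 187 and 183, and the OD libraries 133, 113 and 125. The same order, control below OD below CoCl2, held in both lines with no overlap. The 2.34-fold rise with CoCl2 had the same size in Caco-2 (log2 1.22 ± 0.08, FDR 1.57e-12 by edgeR) and in HT-29 (log2 1.23 ± 0.06, FDR 5.63e-17), and the log2 values for OD were 0.57 ± 0.08 (Caco-2) and 0.61 ± 0.06 (HT-29). When libraries were scaled by total counts alone, RELA was below the fold limit with CoCl2 in both lines (log2 0.90 in Caco-2 and 0.59 in HT-29), while the median of all genes stood at -0.35 and -0.66.

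NFKB1, the gene of the p50 precursor p105, was the subunit that no agent raised. It held 52.9, 55.6 and 49.0 CPM in the Caco-2 controls, 27.5, 27.3 and 27.9 with CoCl2 and 51.2, 45.1 and 47.8 with OD. The CoCl2 libraries lay at about the same value and below all others, and the OD range overlapped the control range. The log2 fold change with CoCl2 was -0.93 ± 0.09 (FDR 2.02e-09 by edgeR), short of the fold limit, and -1.25 when libraries were scaled by total counts alone, past it. With OD it was -0.13, with a 95% interval from -0.30 to 0.04. In HT-29 the means were 63.2 ± 2.39 CPM in control, 57.1 ± 1.25 with CoCl2 and 56.2 ± 4.47 with OD (SD, n = 3), with log2 fold changes of -0.15 and -0.17.

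Because counts per gene depend on transcript length, subunits were set against each other per length, as RPKM from the authors' log2 values, which were scaled within each line. In Caco-2 controls RELA (10.2 ± 0.378 RPKM) stood highest, NFKB1 and NFKB2 followed, and RELB stood lowest. With CoCl2 in Caco-2 the order of NFKB1 and NFKB2 turned over. The ratio of NFKB2 to NFKB1 mRNA was 0.371 to 0.467 in the Caco-2 controls, 2.39 to 3.13 with CoCl2 and 0.927 to 1.14 with OD. In HT-29 it was 0.541 to 0.591 in control, 2.44 to 2.68 with CoCl2 and 3.03 to 3.38 with OD. The 3 ranges did not overlap in either line.

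The ratio of RELB to RELA was lower in Caco-2 than in HT-29 in every group. In Caco-2 it was 0.0923 to 0.137 in control, 0.118 to 0.151 with CoCl2 and 0.155 to 0.219 with OD, so that the CoCl2 range overlapped that of control. In HT-29 it was 0.282 to 0.360 in control, 0.784 to 0.827 with CoCl2 and 1.34 to 1.4 with OD. RELB and NFKB2 thus led the subunits with OD in HT-29, at 31.4 and 28.9 RPKM with overlapping libraries, where RELA stood at 23.0 and NFKB1 at 8.97. Among all 10 genes, NFKBIZ stood highest per length in the Caco-2 controls (16 RPKM) and IER3 in the HT-29 controls (29.8 RPKM, with no overlap with NFKBIZ, the next). BIRC3 stood lowest in all Caco-2 groups and TNFAIP3 in all HT-29 groups, with CoCl2 in overlap with BIRC3. These are mRNA levels, and the amount of p100, p105 and their cleaved forms was not analysed here.

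**Figure D3:**
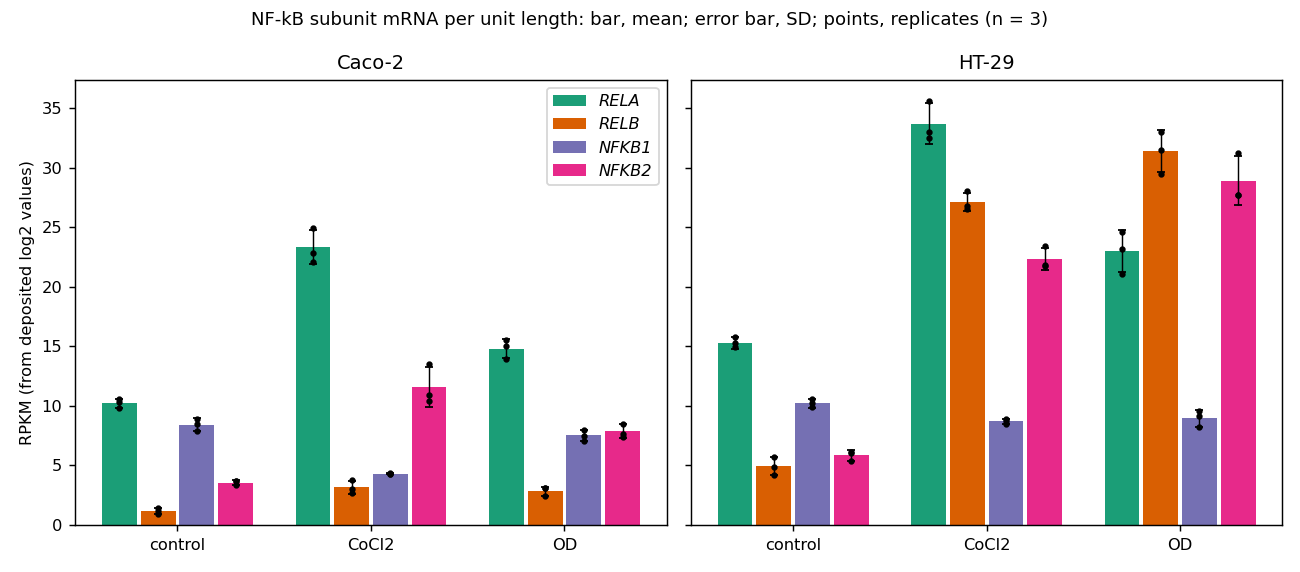
RPKM of the 4 NF-kB subunits by line and treatment, from the deposited log2 values, with bars for the mean, error bars for the SD and points for replicates (n = 3). NFKB1 ran between 4.31 and 10.2 RPKM in all 6 groups, while RELB ran from 1.16 in the Caco-2 controls to 31.4 with OD in HT-29.

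The inhibitors divided. NFKBIA, whose product IkB-alpha masks RELA and p50 and is made anew after each wave of activation, held 19.8, 22.1 and 21.9 CPM in the Caco-2 controls, 47.4, 46.1 and 50.0 with CoCl2 and 32.1, 32.7 and 33.7 with OD. In HT-29 it held 21.7, 20.3 and 22 CPM in control, 82.0, 86.2 and 74.6 with CoCl2 and 55.6, 48.9 and 49.3 with OD. As for RELA, CoCl2 stood above OD and OD above control in both lines with no overlap. By edgeR NFKBIA rose with CoCl2 by log2 1.17 ± 0.09 in Caco-2 (FDR 6.04e-11) and 1.92 ± 0.07 in HT-29 (FDR 9.17e-20), and with OD by 1.26 ± 0.07 in HT-29 (FDR 4.88e-15). With OD in Caco-2 it was 0.63 ± 0.09, under the fold limit, and with CoCl2 in Caco-2 it was 0.85, also under it, when libraries were scaled by total counts alone.

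TNFAIP3 encodes A20, which removes and adds ubiquitin chains on signalling proteins and so ends activation. Its Caco-2 controls held 39.9, 40.8 and 44.7 CPM, the CoCl2 libraries 85.7, 75.8 and 85.0, and the OD libraries 66.0, 59.9 and 60. The HT-29 controls held only 5.36, 5.36 and 5.11 CPM, with 23.6, 26.6 and 23.4 after CoCl2 and 33.8, 26.6 and 27.8 after OD. Every treated library lay above its controls, and every treated HT-29 library stayed below the Caco-2 controls. TNFAIP3 rose 4.67-fold with CoCl2 (log2 2.22 ± 0.11, FDR 1.59e-16 by edgeR) and 5.6-fold with OD (log2 2.49 ± 0.10, FDR 1.91e-17) in HT-29. In Caco-2 CoCl2 gave log2 0.98 ± 0.08 (FDR 3.43e-10), just inside the fold limit, and it was 1.02 without replicate 2 and 1.00 without replicate 3, both called. OD gave 0.57 ± 0.08 there.

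NFKBIZ, whose product IkB-zeta acts in the nucleus and is needed for a later group of targets, was not called in any comparison with control. Its Caco-2 controls held 88.0, 95.2 and 93.7 CPM, the CoCl2 libraries 132, 145 and 142, and the OD libraries 72.9, 78.4 and 70.6. CoCl2 thus lay above control and OD below it without overlap (log2 0.60 ± 0.08, FDR 2.01e-07, and -0.32 ± 0.08, FDR 0.00123, by edgeR). In HT-29 the control range of 79.8 to 97.7 CPM overlapped that of CoCl2 (85.8 to 98.3) and of OD (96.8 to 108), and the 95% interval of the CoCl2 log2 fold change ran from -0.12 to 0.15.

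BIRC3 encodes cIAP2, a ubiquitin ligase that joins the TNF receptor complex and, with TRAF proteins, keeps the kinase of the alternative branch (MAP3K14) low. It held 4.95, 4.63 and 3.53 CPM in the Caco-2 controls, 13.7, 13.5 and 18 with CoCl2 and 6.05, 9.85 and 10.0 with OD. In HT-29 it held 9.36, 13 and 12.1 CPM in control, 31.6, 44.8 and 34.4 with CoCl2 and 98.1, 78.5 and 77.2 with OD. The groups of each line did not overlap, and the OD libraries stood highest in HT-29 and between the others in Caco-2. CoCl2 raised BIRC3 by log2 1.79 ± 0.19 in Caco-2 (FDR 9.47e-09 by edgeR) and 1.67 ± 0.12 in HT-29 (FDR 1.06e-12), and OD raised it by 2.86 ± 0.11 in HT-29 (FDR 4.50e-18). The Caco-2 value for OD was 0.98 ± 0.20 (FDR 0.000203), and 1.28, called, without replicate 1. By limma-trend the CoCl2 value in Caco-2 was 0.91, under the fold limit.

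ICAM1, an adhesion molecule to which leukocytes bind and a classic NF-kB target, gave the highest log2 fold change among the 10 genes. Its HT-29 controls held 6, 4.98 and 4.88 CPM, the CoCl2 libraries 19.7, 20.3 and 19.4, and the OD libraries 68.2, 55.7 and 59.3. The Caco-2 controls held 29.5, 32.9 and 28.7 CPM, with 42.0, 36.7 and 39.9 after CoCl2 and 51.6, 56.0 and 61.0 after OD. OD stood above CoCl2 and CoCl2 above control in both lines without overlap, and with OD both lines reached ranges that overlap. In HT-29 ICAM1 rose 11.7-fold with OD (log2 3.55 ± 0.09, FDR 1.00e-21 by edgeR, gene 63 of 15812 from the highest) and 3.80-fold with CoCl2 (log2 1.93 ± 0.11, FDR 3.39e-15). In Caco-2 neither value passed the fold limit, with log2 0.38 ± 0.09 for CoCl2 (FDR 0.00113) and 0.89 ± 0.09 for OD (FDR 2.44e-08).

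IER3, an early response gene that affects cell survival, went apart in the lines. Its Caco-2 controls held 1.86, 2.01 and 1.87 CPM, the CoCl2 libraries 9.67, 6.39 and 5.68, and the OD libraries 2.15, 2.88 and 2.47. The HT-29 controls held 36, 43.9 and 37.1 CPM, the CoCl2 libraries 26.4, 21.1 and 23.3, and the OD libraries 26.8, 24.6 and 23.1. In Caco-2 the treated libraries lay above control, and in HT-29 below it, with no overlap in either. IER3 rose by log2 1.90 ± 0.23 with CoCl2 in Caco-2 (FDR 1.13e-07 by edgeR), while OD gave 0.39 there with a 95% interval from -0.15 to 0.93. In HT-29 the log2 fold changes were -0.73 ± 0.08 with CoCl2 and -0.65 ± 0.08 with OD, under the fold limit, and the first was -1.36, called, when libraries were scaled by total counts alone.

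The agents were then compared with each other at the doses above, which differ, so the values describe these treatments and not the compounds at a matched dose. In Caco-2, CoCl2 against OD called 1 of the 10 genes, IER3, which was higher with CoCl2 (log2 1.51 ± 0.22, FDR 4.25e-06 by edgeR), where 5.21% of all genes were called higher, 6.44% lower and 11.7% in either direction. Another 6 genes were higher with CoCl2 and 2, NFKB1 and ICAM1, were lower by FDR alone, under the fold limit. The FDR limit alone was passed by 49.6% of all genes. RELB gave 0.15, with a 95% interval from -0.19 to 0.49. In HT-29, 2 of the 10 were called, against 29.9% of all genes (10.8% higher and 19.2% lower), and both were lower with CoCl2: ICAM1 (log2 -1.62 ± 0.08, FDR 1.91e-16) and BIRC3 (log2 -1.19 ± 0.10, FDR 1.88e-11). Without replicate 1 BIRC3 gave -0.96, under the fold limit, and 1 gene was called. RELA and NFKBIA stood higher with CoCl2 in HT-29 too, by log2 0.62 and 0.66, under the fold limit, and 8 of the 10 genes passed the FDR limit alone, against 77.7% of all genes.

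Before treatment 5 of the 10 genes were called between the lines, with all 18 libraries in 1 fit. That share was near the background, since 45.8% of all 17921 genes tested were called. By FDR alone 8 of the 10 passed, against 79.1% of all genes. RELB (log2 2.19 ± 0.15), BIRC3 (1.49 ± 0.19) and IER3 (4.43 ± 0.16, 21.6-fold) were higher in HT-29 controls than in Caco-2 controls, and TNFAIP3 (-2.90 ± 0.10) and ICAM1 (-2.45 ± 0.11) were lower. The FDR by edgeR lay between 4.11e-23 and 1.14e-08 for these 5 genes. RELA (log2 0.66), NFKB2 (0.80) and NFKB1 (0.36) were higher in HT-29 controls by FDR alone, under the fold limit. NFKBIA and NFKBIZ gave log2 differences of 0.10 and 0.05, with 95% intervals from -0.07 to 0.27 and from -0.10 to 0.20.

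Whether the responses differed between the lines was tested as an interaction over all 18 libraries, as the HT-29 log2 fold change minus that of Caco-2. For OD the difference was called for 6 of the 10 genes, against 15.2% of all genes (8.96% higher and 6.24% lower), and 8 of the 10 passed the FDR limit alone, against 42.9%. The response to OD was larger in HT-29 for ICAM1 (2.64 ± 0.14, FDR 6.18e-17 by edgeR), TNFAIP3 (1.90 ± 0.14, FDR 2.26e-13), BIRC3 (1.87 ± 0.25, FDR 2.14e-07), RELB (1.33 ± 0.20, FDR 1.93e-06) and NFKB2 (1.13 ± 0.13, FDR 6.73e-09), while IER3 gave a negative difference (-1.06 ± 0.27, FDR 0.00141), with log2 fold changes of opposite sign, 0.39 (FDR 0.216) in Caco-2 and -0.65 (FDR 5.77e-08) in HT-29. The values for NFKB2 and IER3 fell under the fold limit when a replicate was left out, at 0.93 without replicate 1 and -0.87 without replicate 2.

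For CoCl2 the difference was called for 3 of the 10 genes, against 21.6% of all genes (7.79% higher and 13.8% lower), and 7 passed the FDR limit alone, against 49.8%. It was 1.44 ± 0.15 for ICAM1 (FDR 4.05e-10 by edgeR), 1.14 ± 0.14 for TNFAIP3 (FDR 2.05e-08) and -2.72 ± 0.23 for IER3 (FDR 5.60e-12). TNFAIP3 gave 0.94, under the fold limit, when libraries were scaled by total counts alone, and RELB, at 0.95 ± 0.20, was over it at 1.06 with DESeq2's size factors. The RELA difference did not pass the FDR limit for either agent, with 95% intervals of the difference from -0.30 to 0.10 for CoCl2 and from -0.18 to 0.22 for OD.

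**Figure D4:**
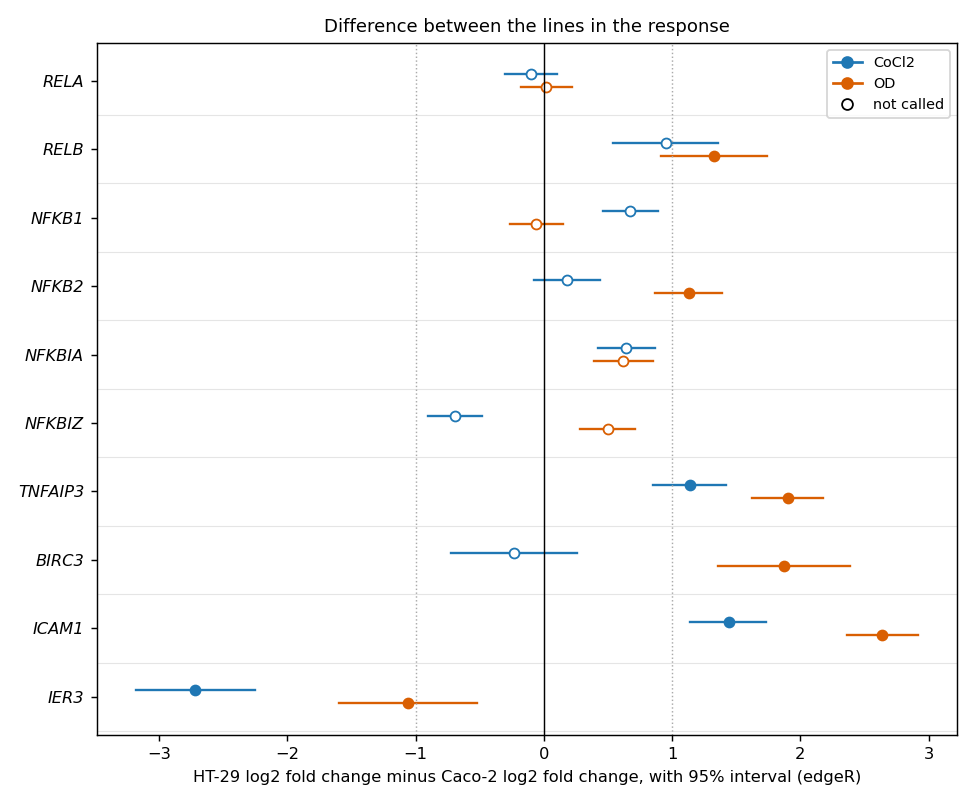
Difference between the lines in the response of each gene, as the HT-29 log2 fold change minus the Caco-2 log2 fold change, with its 95% interval, for CoCl2 and OD, with filled points for called differences. ICAM1 (2.64) gave the highest value with OD and IER3 (-2.72) the lowest with CoCl2, and the RELA intervals crossed 0 for both agents.

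Beyond the 10 genes, 86 other genes of the pathway were listed by role, and the count filter kept 68 of them in Caco-2 and 72 in HT-29. With CoCl2, 22 rose and 5 fell in Caco-2 (39.7% called, against 23.4% of all genes), and 23 rose and 7 fell in HT-29 (41.7%, against 41.3%). With OD, 8 rose and 2 fell in Caco-2 (14.7%, against 11.7%), and 16 rose and 2 fell in HT-29 (25.0%, against 17.1%). These shares count both directions. Of all genes, CoCl2 gave 9.13% higher and 14.2% lower in Caco-2, with 17.4% higher and 23.9% lower for HT-29. OD gave 4.43% higher and 7.27% lower in Caco-2, with 9.50% higher and 7.57% lower for HT-29. More of the listed genes rose than fell in each comparison, whereas among all genes this held only for OD in HT-29. The median log2 fold change of the listed genes lay between 0.30 and 0.44 in these comparisons. The 27 calls with CoCl2 in Caco-2 became 14 when libraries were scaled by total counts alone and 10 by limma-trend on the log2 table, which also gave 2 for OD in Caco-2 and 17 for CoCl2 in HT-29.

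Among ligands and receptors, the cytokine genes TNF, IL1A and IL1B gave few counts. TNF had 1 to 3 counts per library in the HT-29 controls, 5 to 6 with CoCl2 and 14 to 20 with OD. Caco-2 libraries held 0 to 4 counts of it, and it was not tested there. It was called higher in HT-29 with both agents, and no fold is given against controls at this depth. IL1A and IL1B rose with both agents in Caco-2, from 0.263 and 0.472 CPM in control to 0.740 and 1.27 with CoCl2 and 0.734 and 1.05 with OD (FDR 0.0038 to 0.0274 by edgeR). Without replicate 1 neither was called with OD in Caco-2 (log2 0.83 and 1.01) nor IL1A with CoCl2 (1.36), and IL1B with OD was not called without replicate 2 or 3 either (1.31 and 1.1). IL1A with CoCl2 and IL1B with OD also lost their calls in Caco-2 when libraries were scaled by total counts alone (1.20 and 0.98), as IL1A with OD did by DESeq2 (1.5) and with no filter (1.49). In HT-29, IL1A rose 2.11-fold with CoCl2, though not without replicate 2 (log2 0.91), with total counts alone (0.45), in 1 fit over 18 libraries (0.98) or by limma-trend (0.57), and IL1B was called lower, with 1 to 2 counts per library against 5 to 14 in control. Without replicate 3 the CoCl2 calls of TNF and IL1B in HT-29 were lost. Of the 9 ligands and receptors tested in Caco-2, 2 rose and 2 fell with CoCl2 (44.4%, against 23.4% of all genes) and 2 rose and 1 fell with OD (33.3%, against 11.7%). Of the 10 tested in HT-29, 2 rose and 3 fell with CoCl2 (50%, against 41.3%) and 2 rose with OD (20%, against 17.1%). The interleukin 1 receptor gene IL1R1 fell with CoCl2 in both lines, by 1.45 on the log2 scale in each.

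In the group of other subunits and IkB proteins, BCL3, a nuclear IkB relative that works with p50 and p52, rose with CoCl2 in both lines (log2 1.23 and 1.20) and with OD in Caco-2 (1.02). REL, another activating subunit, rose 3.00-fold with CoCl2 in HT-29, from 20.3 ± 1.64 to 60.9 ± 7.03 CPM, and was at log2 0.95, under the fold limit, in Caco-2. NFKBIB, another cytoplasmic inhibitor, rose with CoCl2 in HT-29 (log2 1.38), and NFKBIE, of the same kind, rose there with both agents (1.25 and 1.26). NFKBID, a further nuclear IkB protein, rose in Caco-2 with CoCl2 (1.20) and OD (1.16) and in HT-29 had log2 values of -0.30 and 0.52. Of these 5 genes, 2 rose with each agent in Caco-2, whereas HT-29 had 4 that rose with CoCl2 and 1 with OD, and 0 fell. That is 40% with each agent in Caco-2 (23.4% and 11.7% of all genes called), and in HT-29 80% for CoCl2 (41.3%) and 20% for OD (17.1%), over few genes. When libraries were scaled by total counts alone, the 4 values for CoCl2 in HT-29 were under the fold limit (REL 0.95, NFKBIB 0.74, NFKBIE 0.62 and BCL3 0.57), as was BCL3 in Caco-2 with CoCl2 (0.91) and OD (0.87) and NFKBID with CoCl2 (0.88). With OD in Caco-2, BCL3 and NFKBID were also under it without replicate 3 (0.91 and 0.95). By limma-trend on the log2 table NFKBID (0.58 and 0.55 with CoCl2 and OD) and BCL3 with OD (0.83) in Caco-2, and BCL3 (0.99) and NFKBIE (1.00) with CoCl2 in HT-29, were under it too.

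Of the 22 adaptors and kinases tested, 5 rose and 2 fell with CoCl2 in Caco-2 and 0 were called with OD, where 15 were past the FDR limit alone. In HT-29, 4 rose and 1 fell with CoCl2, and 1 rose and 1 fell with OD. The shares called, 31.8% and 0% (Caco-2) and 22.7% and 9.09% (HT-29), compare with 23.4%, 11.7%, 41.3% and 17.1% of all genes, so that all but the first lay below the background, and 50.4% of all genes passed the FDR limit alone for OD in Caco-2. BCL10, which links receptors to the IkB kinase, rose with CoCl2 in both lines (log2 1.72 for Caco-2 and 1.90 for HT-29), and MAP3K14, the kinase of the alternative branch, rose with CoCl2 in Caco-2 (1.37, but 0.80 by limma-trend). CARD9, a partner of BCL10, held 53.7 ± 0.261 CPM in the HT-29 controls and fell, to 4.4 ± 0.898 with CoCl2 and 22.6 ± 2.91 with OD.

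Among the ubiquitin enzymes and their partners, TNIP1, which helps A20, rose in all 4 comparisons. It held 95.5 ± 6.27 CPM in the Caco-2 controls, 316 ± 30.1 with CoCl2 and 220 ± 7.21 with OD, and in HT-29 104 ± 1.69, 511 ± 2.16 and 331 ± 26.8 CPM. Its log2 fold changes with CoCl2 and OD were 1.73 and 1.21 (Caco-2) and 2.29 and 1.67 (HT-29). RBCK1, a part of the complex that builds linear ubiquitin chains, rose in HT-29 with OD (log2 1.59). Of 12 genes tested in this group, CoCl2 raised 4 (Caco-2) and 5 (HT-29), OD raised 2 in each line, and 0 fell. The shares with CoCl2 were 33.3% in Caco-2 (23.4% of all genes called) and 41.7% in HT-29 (41.3%). With OD they were 16.7% for each line (11.7% and 17.1%). Both HT-29 shares thus lay near the background for either direction. All these calls were higher, however, and the HT-29 background called higher was 17.4% for CoCl2 and 9.50% for OD. Both HT-29 shares lay above these values, over only 12 genes.

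Among the other target genes, the chemokine gene CCL20 rose in Caco-2 with CoCl2 from 1.62 ± 0.333 to 26.6 ± 0.976 CPM (log2 4.02) and with OD to 6.31 ± 0.658 (log2 1.95). In HT-29 CXCL8, the interleukin 8 gene, rose with CoCl2 from 6.26 ± 1.49 to 82.0 ± 7.93 CPM (log2 3.66). With OD it stood at 26.9 ± 7.98 CPM, also above control with no overlap (20.8 to 35.9 CPM against 4.84 to 7.81). PLAU, a secreted protease gene, and CXCL10, a chemokine gene, rose with OD in HT-29, from 0.189 and 0.732 CPM to 6.17 and 10.9 CPM. PLAU had only 2 to 7 counts per library in those controls, and 18 to 25 with CoCl2. CXCL10 stood at 2.87 ± 1.23 CPM with CoCl2, above control with no overlap (2.09 to 4.29 CPM against 0.516 to 0.93). Whether CXCL8 with OD, and PLAU and CXCL10 with CoCl2, were called is not given here. The chemokine genes did not move as a group, and CXCL2, named after its values were seen, was not called in any comparison with control (log2 -0.29 to 0.92). PTGS2, the inducible cyclooxygenase gene, fell in HT-29 with CoCl2 (log2 -2.31) and OD (-1.42). TRAF1, an adaptor that NF-kB itself induces, fell with CoCl2 in both lines (-1.68 and -2.26). It also fell with OD in Caco-2 (-1.28), though not without replicate 3 (-0.98). With OD in HT-29 TRAF1 stood higher, at 6.72 ± 0.819 CPM against 4.34 ± 0.42 in control. Of the 20 targets tested in Caco-2, 9 rose and 1 fell with CoCl2 and 2 rose and 1 fell with OD, and of 23 in HT-29, 8 rose and 3 fell and 10 rose and 1 fell. These are 50% and 15% of the targets in Caco-2, where 23.4% and 11.7% of all genes were called, and 47.8% with either agent in HT-29, where 41.3% and 17.1% were.

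**Figure D5:**
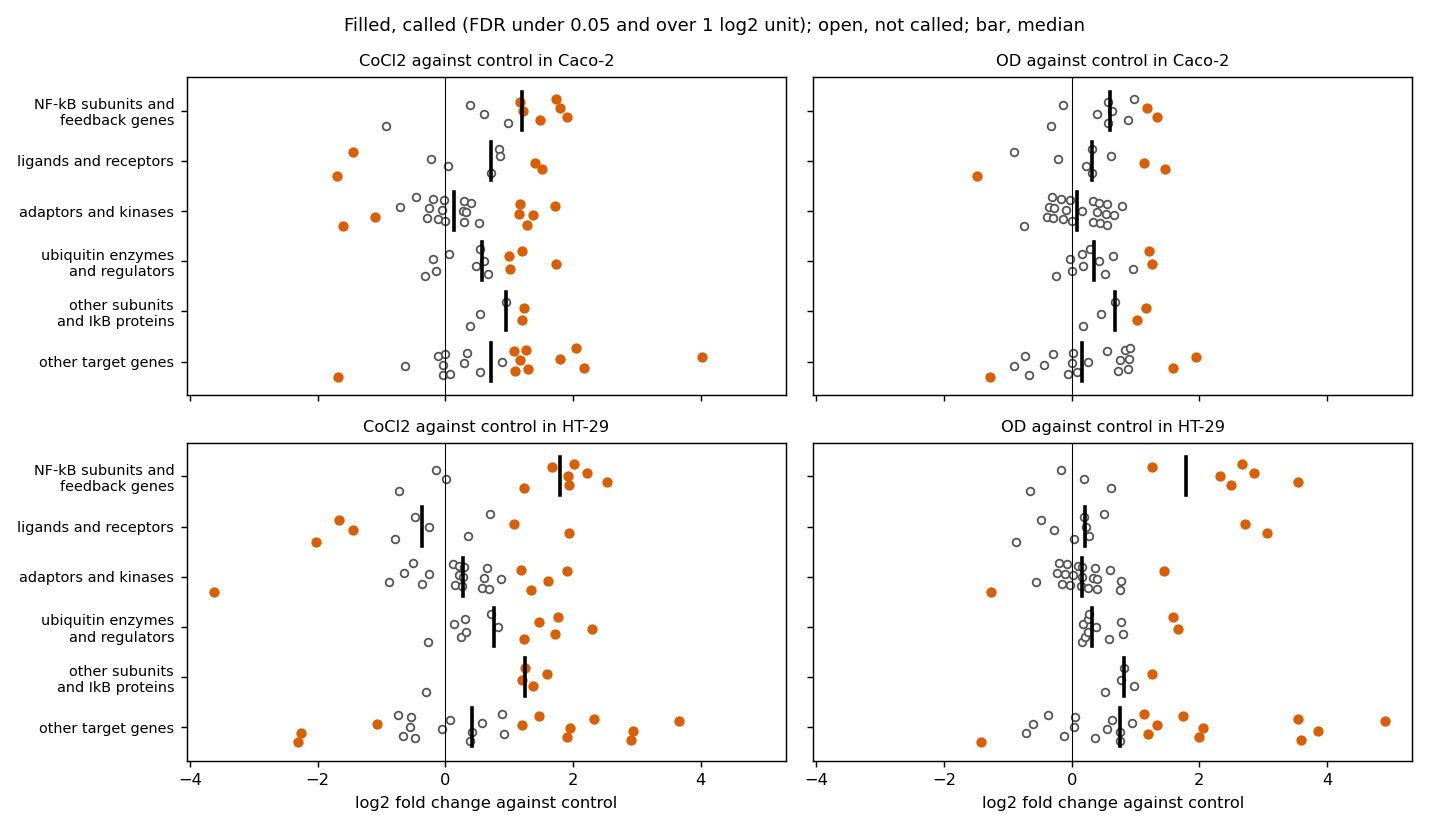
Log2 fold change against control of the 10 genes and of the 5 other groups of pathway genes, 1 panel per comparison, with filled points for called genes, open points for the others and a bar for the median of each group. The 10 genes had medians of 1.20 and 0.60 (Caco-2) and 1.80 and 1.79 (HT-29), and the adaptors and kinases medians of 0.13, 0.08, 0.27 and 0.16.

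For each of the 10 genes but IER3, the genes whose 4 log2 fold changes against control lay nearest were sought. The search covered 9258 genes with a mean of at least 100 counts in each line, by the root mean square of the 4 differences. IER3 fell under that limit in Caco-2 and was left out. NFKB2 and BIRC3 were near each other (0.34) and both near OAS1 (0.23 and 0.37) and IFIT2 (0.27 and 0.19), a pair of genes known as interferon-induced. ICAM1 lay nearest to IL32 (0.49), IFIT3 (0.60) and MVD (0.61), and RELB to GEM (0.26), RUSC1-AS1 (0.31) and NFKB2 (0.34). TNFAIP3 lay near PDK3 (0.15), and RELA to EXPH5 (0.07). The 4 values share controls within a line, and the distance is a description of these libraries.

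Of miRNAs, miR-146a and miR-146b are known to be induced by NF-kB and to act on its adaptors, and miR-155 to be induced by it in immune cells. Their mature sequences (RefSeq, GRCh38.p14) are shown because the miR-146 pair shares its seed, bases 2 to 8, in capitals, and so reads the same targets by seed, while miR-155 does not.

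hsa-miR-146a-5p, chr5:160485372-160485393, plus strand: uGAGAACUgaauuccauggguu
hsa-miR-146b-5p, chr10:102436520-102436542, plus strand: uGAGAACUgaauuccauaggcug
hsa-miR-155-5p, chr21:25573983-25574006, plus strand: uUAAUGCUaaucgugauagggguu

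These were not called in any comparison with control, where 0.375% to 4.87% of all miRNAs were called (2.92% for OD in HT-29). hsa-miR-146b-5p held 9900 ± 383 CPM in the Caco-2 controls, 9620 ± 310 with CoCl2 and 9200 ± 300 with OD, with 95% intervals of the log2 fold change from -0.18 to 0.10 and from -0.24 to 0.03. hsa-miR-146a-5p held 823 ± 39.5 CPM in the Caco-2 controls and 52.9 ± 1.76 in the HT-29 controls. hsa-miR-155-5p gave log2 0.29 with OD in HT-29 (FDR 0.155 by edgeR) and 0.16 in Caco-2 (FDR 0.386). Of the 5 miRNAs listed, which also held hsa-miR-21-5p and hsa-miR-9-5p, 1 was called in 1 comparison, hsa-miR-9-5p with CoCl2 in HT-29 (log2 1.01, FDR 0.0167), against 4.87% of all 616 miRNAs tested there. That value rests in part on 1 count in a library of 34043 counts, and it was not called when any 1 replicate was left out.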

How the data were processed

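The authors deposited raw counts of reads per gene and per mature miRNA for the 18 mRNA and 18 miRNA libraries, and for mRNA a table of log2 values (log2 of RPKM plus 1, scaled within each line). Per the submitters' processing notes and the study's methods, reads were trimmed with cutadapt 2.10 and mRNA was aligned with STAR 2.7.5b to GRCh38 with GENCODE 34. The library kit kept strand, per the labels and the methods, but the counting tool and its use of strand are not given in the sources used here, so reads of RELA, TNFAIP3, BIRC3, ICAM1 and IER3 cannot be told apart from those of overlapping antisense genes, nor those of NFKBIZ from NXPE3 on its own strand.

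Each line was fitted over its 9 libraries with edgeR 4.0.16 in R 4.3.3 (TMM, filterByExpr, quasi-likelihood F test, two-sided), and line differences over 18 libraries. SE is the log2 fold change divided by the root of F. Checks on simulated data preceded the fits. DESeq2 1.42.0, limma-trend (limma 3.58.1), other scalings, no filter, no fold limit, a replicate block and leaving out each replicate were alternatives. RPKM was computed back from the deposited log2 values. Gene positions overlapped are those of GENCODE 44. Named pathway genes are 8 set names, and in each group and comparison up to 2 called genes at either end with a mean of at least 20 counts. The genes, groups and lists were chosen with earlier results of these data known. Precision was set by 3 replicates, and miRNA depth fell under 1000000 counts in 3 libraries.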

Additional observations from a re-analysis of the deposited data

Results flagged for a closer look

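The difference between the lines in the response passed the interaction test of edgeR's quasi-likelihood fit, with the fold limit, for these genes, given as the HT-29 log2 fold change minus that of Caco-2. With OD it was 2.64 for ICAM1, 1.90 for TNFAIP3, 1.87 for BIRC3, 1.33 for RELB, 1.13 for NFKB2 and -1.06 for IER3. With CoCl2 it was 1.44 for ICAM1, 1.14 for TNFAIP3 and -2.72 for IER3. Cell line and culture state cannot be told apart in these values.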

How the results depend on the processing

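Of 840 recomputed log2 values of the 10 genes (9 comparisons for each alternative but the fold limit, and 6 for limma-trend and for 1 fit over 18 libraries), 798 kept their direction and their side of the limits, 9 came to pass them, 11 no longer did and 22 changed sign, the last all among values near 0. With no fold limit, 10 (CoCl2) and 8 (OD) of the 10 genes were called against control in Caco-2, and 10 (OD) in HT-29. Of all genes, 64.7%, 50.4% and 68.8% passed in these comparisons. For CoCl2 against OD, 9 and 8 were called in Caco-2 and HT-29 (49.6% and 77.7% of all genes). The line difference with CoCl2 gave 7 (49.8% of all genes) and the control lines gave 8 (79.1%). On the log2 table, limma-trend gave 0 for OD in Caco-2, since RELB (0.83) and NFKB2 (0.96) lay under the fold limit on the log2(RPKM + 1) scale, which understates low genes, as did RELB (0.94) and BIRC3 (0.91) with CoCl2 there. When a replicate was left out, CoCl2 against OD in HT-29 called 1 to 2 genes. With no fold limit the pathway list gave 51 calls (CoCl2) and 46 (OD) in Caco-2 and 65 (CoCl2) and 54 (OD) in HT-29. By limma-trend these were 10 and 2 in Caco-2, and 17 for CoCl2 in HT-29. With library size alone it gave 14 for CoCl2 in Caco-2, where that scaling moved the median of all genes to -0.35. The call of hsa-miR-9-5p with CoCl2 in HT-29 was lost, to 0 miRNAs called, with RLE size factors, with library size alone and without any 1 replicate.

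Values that changed sign were as follows, on the log2 scale. In HT-29, the CoCl2 value of NFKBIZ went to -0.62 with library size alone, -0.04 with no filter, -0.09 in 1 fit over 18 libraries, -0.07 with limma-trend and ran from -0.04 to 0.12 when a replicate was left out. NFKB1 for CoCl2 against OD in HT-29 was -0.47, -0.03, -0.07 and -0.04 under the same settings and ran from -0.05 to 0.10 when a replicate was left out. RELB for CoCl2 against OD in Caco-2 was -0.02 and the NFKB2 line difference with CoCl2 was -0.03 with library size alone. The RELA line difference with CoCl2 was 0.00 and the NFKBIZ difference between controls -0.02 with RLE size factors or DESeq2, the latter from -0.01 to 0.09 when a replicate was left out. Leaving out a replicate gave line differences from -0.43 to 0.16 for BIRC3 with CoCl2, from -0.15 to 0.08 for NFKB1 with OD and from -0.04 to 0.11 for RELA with OD, and from -0.07 to 1.04 for IL1B with OD in HT-29. Of the miRNAs, hsa-miR-155-5p with CoCl2 in Caco-2 was 0.01 with RLE size factors and without shallow libraries, 0.02 with library size alone and 0.03 and 0.04 without replicate 1 and 3, and in HT-29 -0.02, -0.13 with library size alone and -0.08 without replicate 3. With OD in Caco-2, hsa-miR-21-5p was 0.00 with RLE size factors, 0.05 with library size alone and 0.03 without replicate 1, and hsa-miR-9-5p ran from -0.17 to 0.03 when a replicate was left out. The cause was not tested beyond what each setting changes by construction.

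Libraries with the same replicate number in different groups of a line deviated with correlations from -0.132 to 0.131, so no shared deviation was seen. These values cannot show whether such libraries were prepared together. A fit with the replicate block called 6 and 2 of the 10 genes in Caco-2 (CoCl2, OD) and 7 and 6 in HT-29, the counts without the block. With 3 libraries a group, values within about 1 SE of the fold limit can fall on either side of it.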
